A study of Mus musculus with 14 samples.

Results

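The comparison described here sets HL-1 cells transfected with the siRNA reagent siAirn-001.2 (n = 4 arrays) against HL-1 cells transfected with the siRNA reagent siAirn-001.1 (n = 4 arrays), array against array of the same replicate number. These are 8 of the 14 arrays of the study. They were chosen by their labels, and all 20193 genes of the deposited table were tested. HL-1 is a line of mouse atrial cardiomyocytes that goes on dividing in culture and keeps many features of atrial muscle. All groups were grown in Claycomb medium with serum, glutamine, norepinephrine and antibiotics and were transfected transiently at 10 nM of siRNA with the lipid RNAiMax. The other 6 arrays are of cells transfected with a scrambled siRNA (siScramble), and they are used here only to show where a level lay in control cells. Total RNA was biotin-labelled and hybridised to Affymetrix arrays. The sources used here do not give the sequences of the reagents, the part of Airn that each matches or the time from transfection to harvest. The labels call the arrays biological replicates without saying whether they came from separate cultures, and p-values therefore cover the spread among these arrays, which may be technical.

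Airn is a long noncoding RNA, transcribed antisense to Igf2r from the paternal chromosome. It is known for silencing Igf2r in cis, together with Slc22a2 and Slc22a3 in the placenta. An siRNA directs the Argonaute complex to transcripts that pair with its guide strand. Guide strands can also act on partly matching transcripts, and double-stranded RNA can be sensed by innate immune receptors that induce interferon. Reagents against a common target are therefore commonly compared with each other. In a cardiomyocyte the contractile unit is the sarcomere, in which actin and myosin filaments are anchored at the Z-disc and spanned by titin.

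The labelled cell type was checked first. Of the 15 measured atrial cardiomyocyte markers, 13 lay above the median level of all genes over the 14 arrays, and their median level was 11.37 on the log2 scale against 7.48 for all genes. Myl7, the atrial regulatory myosin light chain, lay between 12.88 and 13.51 over the 8 siAirn arrays, while Sln (sarcolipin, an atrial calcium pump inhibitor) lay between 6.09 and 6.54 and Gja5 between 6.14 and 7.13. Of 11 leukocyte markers none lay above the median level of all genes, and of 12 endothelial markers 3 did. Other markers were not all low: 6 of 12 fibroblast markers and 6 of 10 smooth muscle markers lay above it. The smooth muscle markers had a median level of 10.46, and Acta2 (13.93) and the fibroblast marker Vim (13.55) were very bright over the 14 arrays. The arrays had medians of 7.45 to 7.55 (log2), and same-numbered arrays of the reagents correlated at 0.9889 to 0.9971 across genes. Among the siScramble arrays, numbers 5 and 6 stood apart from 1 to 4 in some of the genes described below. H19, for example, was at 7.65 and 7.57 in them and between 10.18 and 10.71 in the other 4, and Tnnc1 was at 7.78 and 7.86 against 9.04 to 9.40.

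The difference in Airn between the reagents did not pass the test. Its log2 level in siAirn-001.1 arrays 1 to 4 was 11.89, 11.82, 10.94 and 10.93, and in siAirn-001.2 arrays 1 to 4 it was 11.93, 11.67, 10.71 and 10.85. In siScramble the lowest array was at 11.78, the median at 12.0 and the highest at 12.16. Arrays 1 and 2 of both reagents lay at or near the siScramble range, and arrays 3 and 4 of both lay well below it. Relative to the siScramble mean on the linear scale, Airn stood at 93.5%, 89.2%, 48.4% and 48.3% with siAirn-001.1 and at 96.2%, 80.5%, 41.4% and 45.5% after siAirn-001.2. The group names used here are those of the labels, and in replicates 1 and 2 Airn was at 80.5% or more of the control level with both reagents. The difference of siAirn-001.2 minus siAirn-001.1 was -0.11 ± 0.07 (log2, SE, n = 4 pairs), with a 95% interval of -0.27 to 0.06 and an adjusted p of 0.497. An exact two-sided sign-flip permutation of the 4 differences gave p = 0.25, where 0.125 is the smallest value that 4 pairs can give.

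The transcripts next to Airn also did not pass the test. Igf2r, which encodes the cation-independent mannose-6-phosphate receptor and is the antisense partner of Airn, differed by 0.07 ± 0.07 (log2, SE; 95% interval -0.10 to 0.23, adjusted p = 0.683). The organic cation transporters Slc22a2 and Slc22a3 differed by 0.09 ± 0.08 (interval -0.08 to 0.27) and -0.05 ± 0.08 (interval -0.23 to 0.14). Igf2bp2, an RNA-binding protein of Igf2 mRNA, differed by -0.05 ± 0.07 (interval -0.22 to 0.12). These intervals leave out differences of 1.5-fold in either direction. None of the 17 measured genes of the Airn locus list passed, and none of them had an unadjusted p under 0.05. Where the probes of each row lie was not checked, since the sources used here give no array design, and the overlapping transcripts Airn and Igf2r are taken as the deposited table names them.

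Elsewhere the reagents did differ. In the limma fit with replicate number as a block, 180 of 20193 genes passed an adjusted p of 0.05, which is 0.891% of the genes tested. Of these, 125 were lower with siAirn-001.2 (0.619%) and 55 were higher (0.272%). The 125 lower genes held 10 of the 42 measured sarcomere genes, all 3 called interferon-stimulated genes and all 3 called interferon-inducible GTPases. The 55 higher genes held the secreted ligands Bmp4 and Tgfb2, the integrin subunit Itga4 and 4 p53 targets. Differences were moderate in size, with 93 of the 180 at least 1.5-fold (24 higher, 69 lower) and 11 at least 2-fold (1 higher, 10 lower). In bulk RNA, fewer cells of a kind and less RNA per cell cannot be told apart. The number of calls depends on the design. Without the replicate block it was 25 (0.124%), all of them among the 180, and with 1 replicate number left out it was 1 (without number 1 or without number 4), 31 (without number 2) or 23 (without number 3). All 180 genes kept their direction in each of these fits, since each had 4 differences of the same sign.

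**Figure D1:**
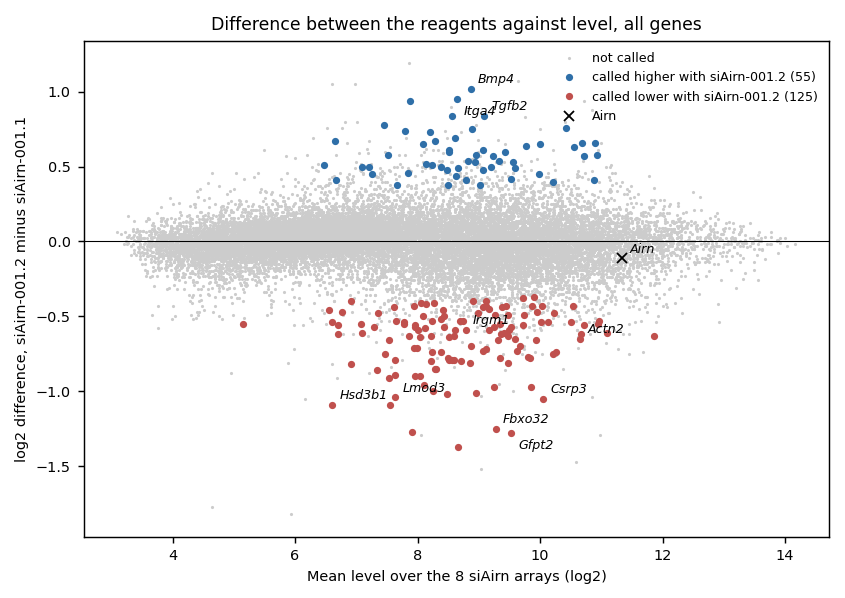
Each point is 1 of the 20193 genes, with its mean log2 level over the 8 siAirn arrays on the horizontal axis and its log2 difference, siAirn-001.2 minus siAirn-001.1, on the vertical axis. The 55 genes called higher (blue) and 125 called lower (red) in the blocked limma fit lie mostly at middle and high levels, and Airn (cross) lies near 0 at -0.11.

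The called genes were mostly well expressed, with a median level of 8.68 over the 8 arrays against 7.47 for all genes, and 22 of the 180 lay below the latter. In 108 of the 180 the 4 arrays of a reagent did not overlap with the 4 of the other. Over all genes that was so for 1117, or 5.53%. The size of the difference varied with the replicate number. The median difference of the 125 lower genes was -0.59, -0.46, -0.70 and -0.74 (log2) in numbers 1 to 4, and that of the 55 higher genes was 0.51, 0.46, 0.68 and 0.55. The largest of the 4 differences was that of number 1, 2, 3 or 4 in 31, 8, 74 and 67 of the 180 genes. Over all genes, 260, 91, 1330 and 940 differed by at least 1.5-fold in numbers 1 to 4. Numbers 3 and 4, the ones in which Airn was at 41.4% to 48.4% of the siScramble mean, thus had more large differences than numbers 1 and 2. Across all genes the differences of numbers 3 and 4 correlated at 0.669, those of 1 and 2 at 0.348 and the other pairs of numbers at 0.173 to 0.285. These correlations are descriptions across genes, which are not independent. A fit of numbers 3 and 4 alone, added after the data were seen, called 2583 genes (12.8% of those tested; 1194 higher, 1389 lower), 176 of the 180 among them. It has 4 arrays and rests on the spread between 2 differences per gene. The same fit of numbers 1 and 2 alone called 377 genes (1.87%; 133 higher, 244 lower), 151 of the 180 among them. Whether the reagents differ more in some numbers than in others was not tested.

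Among the 54 gene lists examined, the one with the most called genes was the sarcomere list. Of 42 measured sarcomere genes, 10 passed and all 10 were lower with siAirn-001.2 (23.8% called, against 0.891% of all genes). The list's median difference was -0.22 (log2) against 0.008 over all genes, and 32 of its 42 members were below 0. Csrp3, the muscle LIM protein of the Z-disc, was at 10.27, 10.33, 10.78 and 10.91 (log2) in siAirn-001.1 arrays 1 to 4 and at 9.44, 9.69, 9.35 and 9.60 in siAirn-001.2. The siScramble arrays ran from 9.41 through a median of 10.1 to 10.31. All siAirn-001.1 arrays of Csrp3 lay above all siAirn-001.2 arrays. The lower end of the siScramble range came from siScramble numbers 5 and 6, at 9.41 and 9.52. Numbers 1 to 4 of siScramble were at 10.04 to 10.31, above all siAirn-001.2 arrays. The difference was -1.05 ± 0.13 (SE; 2.07-fold, adjusted p = 0.022). Lmod3, a leiomodin that nucleates actin filaments, was at 8.24, 7.99, 8.14 and 8.24 with siAirn-001.1 and at 7.41, 7.18, 6.82 and 7.05 after siAirn-001.2. Its siScramble arrays had a lowest value of 7.19, a median of 7.60 and a highest of 7.69. All siAirn-001.1 arrays lay above that range, and 3 of the siAirn-001.2 arrays lay below it. In siScramble, numbers 5 and 6 were at 7.24 and 7.19. Numbers 1 to 4 were at 7.58 to 7.69, above all siAirn-001.2 arrays. The difference of Lmod3 was -1.04 ± 0.10 (2.05-fold, adjusted p = 0.0101).

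**Figure D2:**
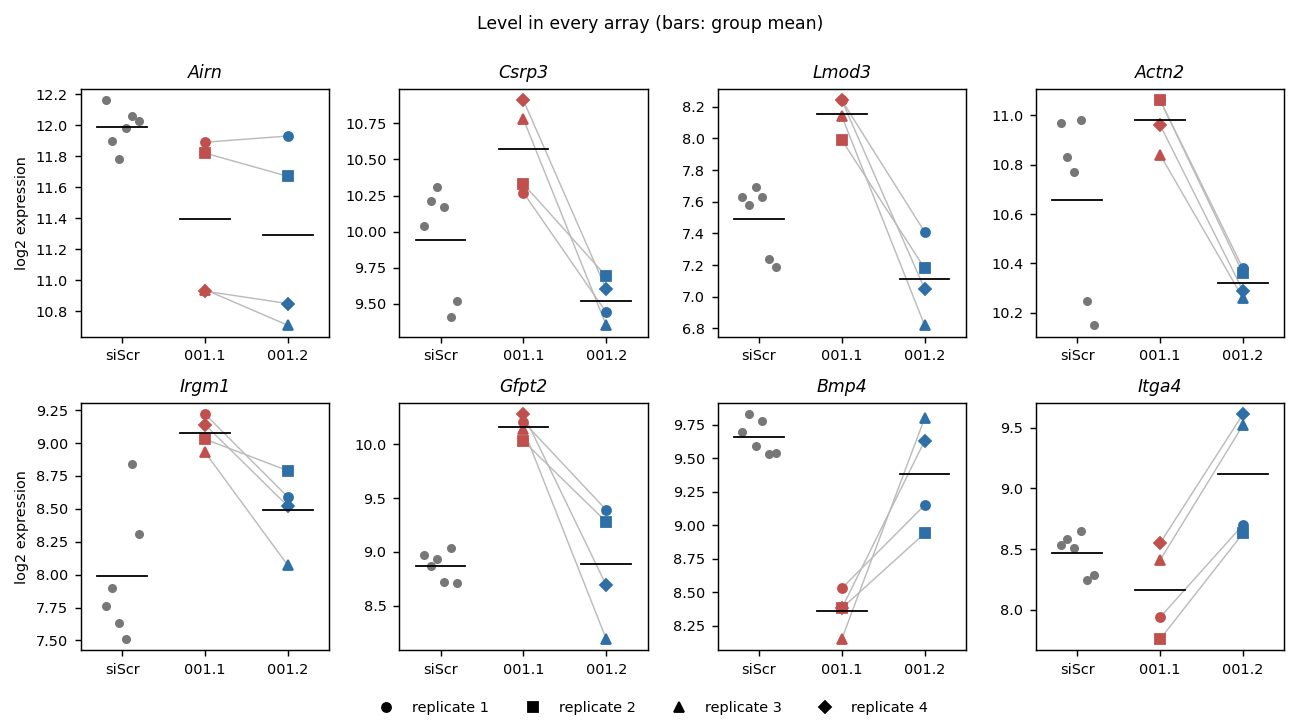
Log2 expression (vertical axes) of 8 genes in the 6 siScramble arrays (grey), the 4 siAirn-001.1 arrays (red) and the 4 siAirn-001.2 arrays (blue), with grey lines between arrays of the same replicate number and black bars at group means. Airn separates numbers 3 and 4 from 1 and 2 in both reagents, whereas Csrp3, Lmod3, Actn2, Irgm1 and Gfpt2 are lower and Bmp4 and Itga4 higher with siAirn-001.2 in all 4 numbers.

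Several of the called sarcomere genes encode proteins of the Z-disc or spanning the sarcomere. Actn2, the sarcomeric alpha-actinin that crosslinks actin at the Z-disc, was at 11.06, 11.06, 10.84 and 10.96 with siAirn-001.1 and at 10.38, 10.36, 10.26 and 10.29 after siAirn-001.2, against 10.15, 10.8 and 10.98 (lowest, median, highest) in siScramble. Its 4 differences were close to one another, between -0.69 and -0.58, and averaged -0.65 ± 0.06 (adjusted p = 0.0101). Of the siAirn-001.1 arrays, numbers 1 and 2 lay above the siScramble range and the other 2 inside it, and the siAirn-001.2 arrays lay inside it, where its lower end came from siScramble numbers 5 and 6 at 10.25 and 10.15. Myoz2 (calsarcin-1), which ties calcineurin to the Z-disc, was at 8.80, 8.68, 8.59 and 8.94 with siAirn-001.1 and at 7.92, 7.98, 7.90 and 8.24 after siAirn-001.2, a difference of -0.74 ± 0.07 (adjusted p = 0.00893). Ttn (titin), the giant elastic protein that spans the sarcomere, was at 10.13, 10.13, 9.25 and 9.16 with siAirn-001.1 and at 9.59, 9.39, 8.54 and 8.66 after siAirn-001.2. The Ttn arrays of the reagents overlapped because numbers 1 and 2 were higher than 3 and 4 with either reagent, and within each number siAirn-001.2 was lower by 0.50 to 0.74.

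Further called sarcomere genes encode thin-filament and kinase components. Tnnc1, the slow skeletal and cardiac troponin C, differed by -0.73 ± 0.09 (adjusted p = 0.0241) and Tnni1, the slow skeletal troponin I of embryonic heart, by -0.61 ± 0.09 (adjusted p = 0.0323). Mylk3, the cardiac myosin light chain kinase, differed by -0.64 ± 0.06 with 4 differences between -0.69 and -0.57. Lmod2, the cardiac leiomodin, differed by -0.54 ± 0.09 and was near the threshold (adjusted p = 0.0496). For Lmod2 as for Ttn, levels differed more between replicate numbers (10.91 and 10.90 against 9.67 and 9.66 with siAirn-001.1) than between the reagents.

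Other genes of muscle cells that are on none of the lists were also called lower, and they were chosen for mention after their values were seen. They include the kinase gene Alpk3 (-0.85 ± 0.10), the myosin-binding protein H-like gene Mybphl (-0.80 ± 0.08), the cardiac leucine-rich repeat gene Lrrc10 (-0.70 ± 0.08), the tropomodulin Tmod4 (-0.63 ± 0.10), the dystrophin-complex gene Sgcd (-0.52 ± 0.07) and the troponin I-interacting kinase Tnni3k (-0.50 ± 0.08). Not every muscle gene was lower: Synm, an intermediate filament protein of muscle, was called higher by 0.50 ± 0.08.

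Promoter letters of the called sarcomere genes were read from RefSeq (GRCm38.p6), as a description, in windows from 250 bases before to 50 bases after the start of each gene. The MEF2 site and the CArG box, the letters bound by the muscle factors MEF2 and SRF, were searched on both strands, and this search was added after the data were seen. The MEF2 site was held by 3.11% of 14934 array genes with a window and by 7 of 34 sarcomere genes (20.6%), and the CArG box by 1.66% and by 9 of 34 (26.5%). Of the 8 called sarcomere genes with a window, 2 held the MEF2 site and 0 the CArG box. The windows of these 2 are shown up to the start of the gene, 5′ to 3′ in the direction of transcription, with the matching letters in capitals, because they are the called sarcomere promoters with a match.
Ttn, chr2:76982548-76982797, minus strand: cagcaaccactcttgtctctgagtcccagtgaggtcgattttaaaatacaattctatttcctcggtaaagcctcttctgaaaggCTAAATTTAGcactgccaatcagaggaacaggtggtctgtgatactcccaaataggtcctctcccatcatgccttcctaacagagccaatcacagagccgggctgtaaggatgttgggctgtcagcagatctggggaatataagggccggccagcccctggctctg
Myoz2, chr3:123034988-123035237, minus strand: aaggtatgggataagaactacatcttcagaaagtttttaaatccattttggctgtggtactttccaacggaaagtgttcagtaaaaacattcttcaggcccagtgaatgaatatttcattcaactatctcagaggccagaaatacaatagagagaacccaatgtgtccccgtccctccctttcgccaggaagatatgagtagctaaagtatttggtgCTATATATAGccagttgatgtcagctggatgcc
The match begins 166 bases upstream of the start in Ttn and 33 bases upstream in Myoz2. A match is not evidence of binding, and its absence from a window says only that these letters are not there.

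All 15 measured atrial markers had a difference below 0 (median -0.26), and 2 of them passed the test. These were Actn2 and Gja5. Gja5 encodes connexin 40, the gap junction protein of atrial muscle, and was at 6.98, 6.91, 7.02 and 7.13 with siAirn-001.1 and at 6.34, 6.61, 6.47 and 6.14 after siAirn-001.2. Its siScramble range was 6.32 to 6.59, with siAirn-001.2 array 2 just above it and array 4 below it. Its difference was -0.62 ± 0.11 (adjusted p = 0.0496). Nppa, atrial natriuretic peptide, named outside the rule as a defining atrial product, did not pass (-0.52 ± 0.23, adjusted p = 0.31): it was at 9.02, 8.91, 10.06 and 10.38 with siAirn-001.1 and at 9.05, 9.09, 8.99 and 9.17 after siAirn-001.2, with differences below 0 in numbers 3 and 4. Set against the mean of siScramble, the average over the 15 markers was 0.29, 0.31, 0.35 and 0.40 (log2) in siAirn-001.1 arrays 1 to 4 and 0.15, 0.11, -0.12 and -0.14 in siAirn-001.2, where siScramble arrays ran from -0.11 to 0.10.

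Of 33 measured cardiac transcription factors, 2 passed and both were lower. Hopx, a homeodomain-only cofactor of SRF, was at 10.48, 10.55, 10.67 and 10.80 with siAirn-001.1 and at 9.93, 10.16, 9.69 and 9.76 after siAirn-001.2, a difference of -0.74 ± 0.12 (adjusted p = 0.0428). The siScramble arrays of Hopx lay between 9.53 and 9.96, below every siAirn-001.1 array. Hey1, a transcriptional repressor induced by Notch, differed by -0.71 ± 0.09 (adjusted p = 0.0247). Of 33 ion channel genes 2 passed, both lower, namely Gja5 and Kcnq1, the slow delayed rectifier potassium channel (-0.49 ± 0.08). None of 34 calcium handling genes passed, although 25 of them were below 0 and their median was -0.19.

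Of 18 genes of muscle atrophy and FoxO factors, 3 passed and all 3 were lower. Fbxo32 (atrogin-1), the muscle-specific ubiquitin ligase subunit that FoxO factors induce, was at 9.98, 9.95, 9.76 and 9.93 with siAirn-001.1, at 9.34, 9.19, 7.88 and 8.21 with siAirn-001.2 and between 8.51 and 8.82 in siScramble. All siAirn-001.1 arrays lay above the siScramble range, whereas the siAirn-001.2 arrays lay above it in numbers 1 and 2 and below it in numbers 3 and 4. The difference of -1.25 ± 0.21 (2.38-fold, adjusted p = 0.0478) thus averages -0.64 and -0.75 in numbers 1 and 2 with -1.88 and -1.73 in numbers 3 and 4. Trim55 (MuRF2), a ligase of the sarcomeric M-band, differed by -0.78 ± 0.09, and the transcription factor Foxo4 by -0.41 ± 0.07. The list's median was -0.02 with 9 genes on either side of 0.

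**Figure D3:**
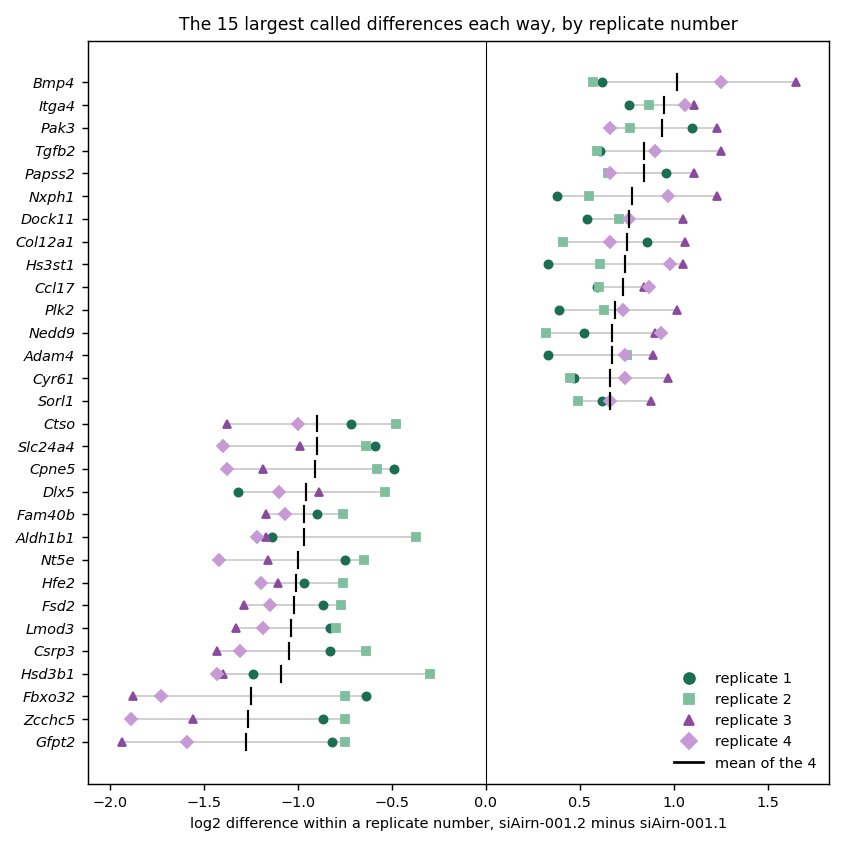
The log2 difference siAirn-001.2 minus siAirn-001.1 (horizontal axis) within each replicate number (symbols) for the 15 largest called differences in each direction, with the mean of the 4 as a black bar. Every point lies on its gene's side of 0, and numbers 3 and 4 are in purple and 1 and 2 in green.

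Among the 15 largest lower genes, several act in metabolism. Gfpt2, an amidotransferase that starts hexosamine synthesis, had the largest difference of those named by rule. Its level was 10.21, 10.03, 10.14 and 10.28 with siAirn-001.1 and 9.39, 9.28, 8.19 and 8.69 after siAirn-001.2, with siScramble between 8.71 and 9.04. The difference was -1.28 ± 0.19 (2.42-fold, adjusted p = 0.038). Hsd3b1, a 3β-hydroxysteroid dehydrogenase of steroid synthesis, differed by -1.09 ± 0.18, with siAirn-001.1 at 7.55, 6.62, 6.99 and 7.47 and siScramble at 5.70 to 6.15. Hsd11b1, which regenerates active glucocorticoid, differed by -0.80 ± 0.06 with 4 differences between -0.87 and -0.70. The third called gene of the 35 in steroid and retinoid metabolism went the other way: Aldh1a1, a retinaldehyde dehydrogenase, was higher by 0.48 ± 0.08.

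Cd36, Nt5e and Aldh1b1 were further metabolic genes among those lower. Cd36, the fatty acid translocase, was at 7.38, 7.10, 8.11 and 8.48 with siAirn-001.1 and at 6.56, 6.41, 7.25 and 7.42 after siAirn-001.2, a difference of -0.86 ± 0.08 (adjusted p = 0.00893). It was the only called gene of 36 in fatty acid oxidation, and its siScramble arrays ranged from 5.86 and 6.37 in numbers 6 and 5 to 7.37 to 7.67 in the other 4. Nt5e (CD73), the ectoenzyme that makes adenosine from AMP, differed by -1.0 ± 0.13, and the mitochondrial aldehyde dehydrogenase Aldh1b1 by -0.97 ± 0.14. For Aldh1b1 the difference in number 2 was -0.37 and those of the other numbers were -1.22 to -1.14.

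The other lower genes among the 15 largest were Zcchc5 (now Rtl3, derived from a retrotransposon gag gene; -1.27 ± 0.18), Fsd2, a protein of striated muscle (-1.02 ± 0.10), Hfe2 (now Hjv, the BMP co-receptor hemojuvelin, expressed in muscle and liver; -1.01 ± 0.08), Fam40b (now Strip2; -0.97 ± 0.08), the homeodomain factor Dlx5 (-0.96 ± 0.12), the calcium-binding copine Cpne5 (-0.91 ± 0.15), the sodium-calcium-potassium exchanger Slc24a4 (-0.90 ± 0.13) and the cathepsin Ctso (-0.90 ± 0.13). Hfe2 was at 9.62, 9.53, 9.30 and 9.40 with siAirn-001.1 and at 8.66, 8.76, 8.19 and 8.20 with siAirn-001.2. In siScramble it was at 8.12 to 9.0, so that only siAirn-001.1 arrays lay outside the full control range. The lower end of that range came from siScramble numbers 5 and 6, at 8.20 and 8.12. Numbers 1 to 4 of siScramble were at 8.70 to 9.0, and siAirn-001.2 arrays 1, 3 and 4 lay below them. Hfe2, Fam40b, Lmod3 and Myoz2 passed in 9 of the 11 alternative fits planned, the most among the 69 called genes that the naming rule gave.

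The lists of interferon-stimulated genes and of IRG and GBP GTPases gave calls, all of them lower with siAirn-001.2. Of 43 measured interferon-stimulated genes, 3 passed and all 3 were lower (6.98% called), 36 were below 0 and the median was -0.21. Lgals3bp, a secreted galectin-3-binding glycoprotein, was at 8.62, 8.69, 9.02 and 9.22 with siAirn-001.1, at 8.06, 8.06, 8.27 and 8.03 with siAirn-001.2 and between 7.69 and 8.01 in siScramble. Its difference was -0.78 ± 0.11 (adjusted p = 0.0276), and every siAirn array of either reagent lay above the siScramble range. Oasl2, a member of the oligoadenylate synthetase family, differed by -0.59 ± 0.10, and Ube2l6, the conjugating enzyme of the ubiquitin-like protein Isg15, by -0.59 ± 0.09. Of the 9 measured IRG and GBP GTPases, which attack the vacuoles of intracellular pathogens, 3 passed and were lower: Irgm1 by -0.59 ± 0.10, Gbp6 by -0.57 ± 0.09 and Iigp1 by -0.55 ± 0.08. Iigp1 was dim, at 5.70, 5.22, 5.41 and 5.36 with siAirn-001.1 and at 5.00, 4.95, 4.80 and 4.74 with siAirn-001.2. Its mean level was under 6.09, the limit of the fit that left out dim genes.

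Several interferon genes had large differences that came from numbers 3 and 4. Ifit1, an RNA-binding interferon effector, was at 7.03, 6.83, 8.14 and 8.55 with siAirn-001.1 and at 6.94, 6.60, 6.73 and 6.77 after siAirn-001.2, and it did not pass (-0.88 ± 0.27, adjusted p = 0.165). Usp18, a negative regulator of the interferon receptor, had differences of -0.04, -0.18, -1.03 and -1.13 and did not pass (adjusted p = 0.172). These 2 genes were chosen after their values were seen. Averaged over the 43 genes, siAirn-001.1 arrays 1 to 4 differed from the siScramble mean by 0.15, 0.15, 0.42 and 0.57 (log2) and siAirn-001.2 arrays by 0.04, 0.00, 0.05 and 0.13, with siScramble at -0.03 to 0.05. All 4 siAirn-001.1 arrays were thus above every siScramble array in this average.

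Among 20 genes of the list of nucleic acid sensors, Tmem173 (now Sting1), the adaptor of cytosolic DNA sensing, was higher by 0.38 ± 0.06 (adjusted p = 0.0491). None of 15 MHC class I genes, 19 interferon signalling genes, 34 chemokine, cytokine and NF-kappaB genes or 15 genes of the RNA interference machinery passed. The MHC class I average, as a log2 difference from the siScramble mean, was 0.14, 0.17, 0.37 and 0.47 with siAirn-001.1 and 0.03, 0.07, 0.14 and 0.17 after siAirn-001.2.

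The interferon-stimulated response element is the promoter motif bound by the interferon-activated factor complex. Its core was searched as GAAANNGAAA on both strands, where N is any base, in the same RefSeq windows. It was present in 3.8% of the 14934 array genes with a window. On the lists of interferon-stimulated genes and of IRG and GBP GTPases, 18 of 37 genes with a window held it (48.6%). Of the 4 called genes of these lists with a window, 1 held it. That window is shown up to the start of the gene, with the matching letters in capitals.
Irgm1, chr11:48871421-48871670, minus strand: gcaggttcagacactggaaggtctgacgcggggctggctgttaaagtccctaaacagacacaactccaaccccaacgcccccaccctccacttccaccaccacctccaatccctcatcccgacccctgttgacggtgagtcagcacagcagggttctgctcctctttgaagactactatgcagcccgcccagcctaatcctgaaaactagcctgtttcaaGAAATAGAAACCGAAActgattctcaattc
The Irgm1 window holds 2 overlapping matches, which begin 30 and 24 bases upstream of the start. Irgm1 was at 9.22, 9.03, 8.93 and 9.14 with siAirn-001.1, at 8.59, 8.79, 8.07 and 8.52 with siAirn-001.2 and between 7.51 and 8.84 in siScramble. The upper end of that control range came from siScramble numbers 5 and 6, at 8.84 and 8.31, with the other 4 at 7.90 or below.

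**Figure D4:**
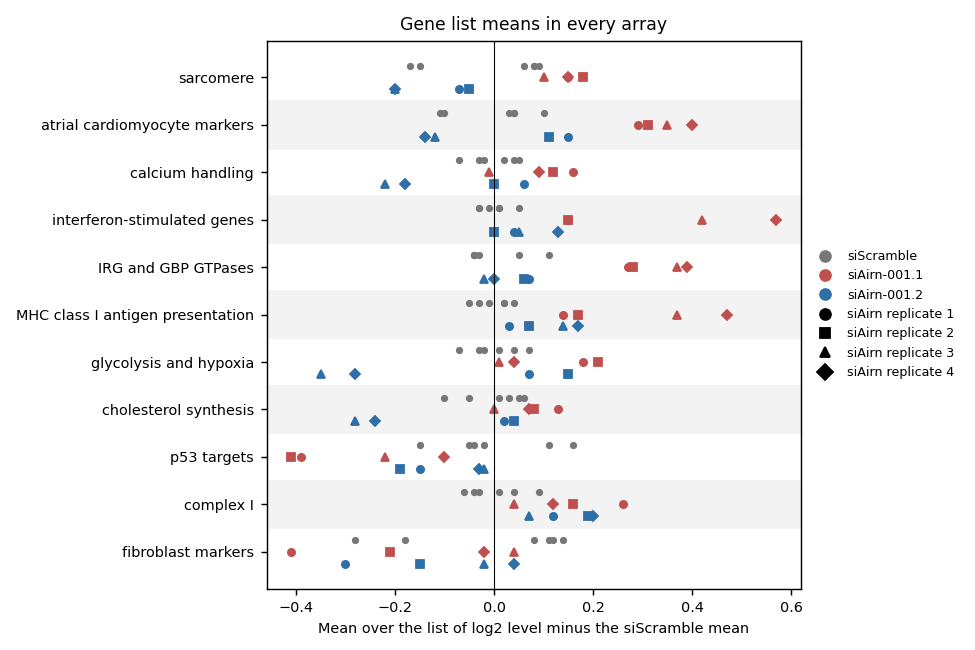
Mean over each gene list of the log2 level minus the siScramble mean (horizontal axis) in every array, with siScramble in grey, siAirn-001.1 in red and siAirn-001.2 in blue, and symbols for the siAirn replicate numbers. For the sarcomere list siAirn-001.1 lies at 0.10 to 0.18 and siAirn-001.2 at -0.20 to -0.05, and for the p53 target list siAirn-001.1 lies at -0.41 to -0.10 and siAirn-001.2 at -0.19 to -0.02.

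Among the genes higher with siAirn-001.2, Bmp4 had the largest difference. Bmp4, a bone morphogenetic protein ligand, was at 8.53, 8.38, 8.15 and 8.38 with siAirn-001.1 and at 9.15, 8.94, 9.80 and 9.63 after siAirn-001.2. The siScramble arrays of Bmp4 lay between 9.53 and 9.83, so that siAirn-001.1 was below the control range in all 4 arrays and siAirn-001.2 below it in numbers 1 and 2. The difference was 1.02 ± 0.17 (2.03-fold, adjusted p = 0.0485). Tgfb2, a transforming growth factor β ligand, was at 8.38, 8.24, 8.88 and 9.16 with siAirn-001.1 and at 8.99, 8.83, 10.13 and 10.06 after siAirn-001.2, with siScramble between 9.52 and 10.36. Its difference was 0.84 ± 0.11 (adjusted p = 0.0276). The third call among 47 TGF-β and BMP pathway genes was lower: Tgfbr3, the co-receptor betaglycan, which presents TGF-β2 to its receptors, differed by -0.72 ± 0.09. The growth factor Fgf18, on none of the lists and mentioned after its values were seen, was higher by 0.65 ± 0.09.

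Adhesion and matrix genes gave calls in both directions. Itga4, the integrin α4 subunit that binds fibronectin and VCAM-1, was at 7.94, 7.76, 8.41 and 8.55 with siAirn-001.1 and at 8.70, 8.63, 9.52 and 9.61 after siAirn-001.2. The siScramble range of Itga4 was 8.25 to 8.65, and the reagents did not overlap. The difference was 0.95 ± 0.08 (1.93-fold, adjusted p = 0.00744). Itga5, the fibronectin receptor subunit α5, was lower by 0.34 to 0.51 in every number (-0.43 ± 0.06, adjusted p = 0.038). Of 72 matrix genes, Col12a1, a fibril-associated collagen (0.75 ± 0.11), and Ogn, the proteoglycan osteoglycin (0.40 ± 0.06), were higher. Lama4, a laminin chain (-0.56 ± 0.08), and Mgp, the matrix Gla protein (-0.54 ± 0.08), were lower.

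Cytoskeletal signalling genes stood among the 15 largest higher genes. Pak3, a p21-activated kinase, differed by 0.94 ± 0.10, Dock11, a Cdc42 exchange factor, by 0.76 ± 0.09 and Nedd9, a scaffold of focal adhesions, by 0.67 ± 0.11. Pak3 was at 7.09, 7.03, 7.5 and 8.0 with siAirn-001.1, which is below every siScramble array (8.52 to 8.84), and at 8.19, 7.80, 8.73 and 8.66 with siAirn-001.2. Sulphate and heparan metabolism gave Papss2, which makes the sulphate donor PAPS (0.84 ± 0.09), and Hs3st1, a heparan sulphotransferase (0.74 ± 0.12). The others were the neurexin ligand Nxph1 (0.78 ± 0.13), the chemokine Ccl17 (0.73 ± 0.08), the metalloprotease family gene Adam4 (0.67 ± 0.10), the sorting receptor Sorl1 (0.66 ± 0.08) and the matricellular protein Cyr61 (now Ccn1; 0.66 ± 0.10).

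Of 37 measured p53 targets, 4 passed and all 4 were higher with siAirn-001.2 (10.8% called), with a list median of 0.19 and 28 genes above 0. Plk2, a polo-like kinase, was at 8.12, 7.89, 8.36 and 8.69 with siAirn-001.1, at 8.51, 8.52, 9.38 and 9.42 with siAirn-001.2 and between 9.06 and 9.42 in siScramble, a difference of 0.69 ± 0.10 (adjusted p = 0.0357). Btg2, an antiproliferative deadenylation cofactor, differed by 0.61 ± 0.07, the death receptor Fas by 0.53 ± 0.08 and the xylulose reductase Dcxr by 0.53 ± 0.07. Of the classical targets, named here outside the rule, Cdkn1a, the cell cycle inhibitor p21, did not pass (0.33 ± 0.08, adjusted p = 0.104) and Mdm2, the ubiquitin ligase of p53, did not either (0.38 ± 0.12, adjusted p = 0.179). The average over the list was taken as a difference from the siScramble mean. It was -0.39, -0.41, -0.22 and -0.10 with siAirn-001.1 and -0.15, -0.19, -0.02 and -0.03 after siAirn-001.2. In each number siAirn-001.1 was the farther from the mean of all 6 siScramble arrays. Those arrays ran from -0.15 to 0.16, with numbers 5 and 6 at 0.16 and 0.11 and numbers 1 to 4 at -0.15 to -0.02. Array 4 of siAirn-001.1 and arrays 3 and 4 of siAirn-001.2 lay inside that range.

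Further lists held 1 or 2 calls each. In growth and G1 control Ccnd2, cyclin D2, was the only one of 24 called; it was inside the siScramble range of 10.26 to 10.83 with siAirn-001.1 (10.40 to 10.59) and below it in all 4 siAirn-001.2 arrays (9.67 to 10.21), with a difference of -0.48 ± 0.08. In the Wnt list the receptor Lgr4 (-0.66 ± 0.11) and the inhibitor Wif1 (-0.63 ± 0.08) were lower among 47 genes. Cyp51, a sterol demethylase, was the only call of 29 cholesterol synthesis genes (-0.55 ± 0.09), and 25 of the 29 were below 0. In glycolysis and hypoxia the mTORC1 inhibitor Ddit4 was higher (0.49 ± 0.08) while 35 of the 40 genes were below 0 with a median of -0.10. Among 31 imprinted genes outside the Airn locus, H19 and Kcnq1 were lower; H19, a long noncoding RNA, was at 8.15, 8.19, 10.93 and 10.77 with siAirn-001.1 and at 7.74, 7.91, 10.23 and 10.17 after siAirn-001.2, a difference of -0.49 ± 0.08 within numbers whose levels lay far apart.

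Of the 54 lists, 27 held no called gene. These included both lists of respiratory complex subunits (36 and 39 genes), cytosolic and mitochondrial ribosomal proteins (57 and 71), DNA replication (49), mitosis (56), the unfolded protein response (29), heat shock chaperones (24) and Nrf2 targets (30). The fibroblast (12), endothelial (12), smooth muscle (10) and leukocyte (11) markers held none either. The average over fibroblast markers, taken as the same difference, was -0.41, -0.21, 0.04 and -0.02 with siAirn-001.1 and -0.30, -0.15, -0.02 and 0.04 after siAirn-001.2, so that it moved with the replicate number in both reagents and ranged from -0.28 to 0.14 in siScramble.

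Set beside the siScramble arrays, the called genes lay away from the control mostly in siAirn-001.1. Of the 125 genes lower with siAirn-001.2, 79 had all 4 siAirn-001.1 arrays above the range of the 6 siScramble arrays, against 3 with all 4 siAirn-001.2 arrays above it, 21 with all 4 inside and 1 with all 4 below. Over all 20193 genes, 945 had all 4 siAirn-001.1 arrays above the range and 350 had all 4 siAirn-001.2 arrays above it. The median distance from the siScramble mean was 0.57 (log2) with siAirn-001.1 and -0.04 after siAirn-001.2. Of the 55 genes higher with siAirn-001.2, 32 had all 4 siAirn-001.1 arrays below the siScramble range, against 2 for siAirn-001.2, which had all 4 arrays above the range in 3 and inside it in 7. The median distances were -0.60 and -0.05. Over all genes, 666 were below the range in all 4 siAirn-001.1 arrays and 406 in all 4 siAirn-001.2 arrays. The siAirn-001.1 mean was the farther from the siScramble mean in 113 of the 125 and in 50 of the 55, against 11630 of all 20193 genes. The reagent means lay on opposite sides of the siScramble mean in 72 of the 125 and in 22 of the 55, against 7417 of all 20193 genes. The distances of both reagents are taken from the same control arrays, and no test was made of them. Without siScramble arrays 5 and 6 the counts for siAirn-001.1 were 88 above and 38 below, and of the 125 genes 2 then had all 4 siAirn-001.2 arrays inside the range and 14 had all 4 below it. Some genes lay otherwise. Ccnd2 was described above. With siAirn-001.1 and siAirn-001.2, the distances from the siScramble mean were 0.32 and -0.33 for Actn2, 0.37 and -0.37 for Myoz2 and 0.26 and -0.36 for Ttn. All 4 siAirn-001.2 arrays of Actn2 lay below siScramble numbers 1 to 4 (10.77 to 10.98), and so did those of Myoz2 (8.45 to 8.77). Slc35e3 and Paqr3 were below the range in all 4 siAirn-001.1 arrays and above it in all 4 siAirn-001.2 arrays, and Spin4 was above it in all 4 siAirn-001.2 arrays.

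The authors' deposited table compares all 8 siAirn arrays together with siScramble and lists 292 genes with an adjusted p under 0.05. Of those 292, 4 were among the 180 genes that differ between the reagents, which is 1.37% of the authors' genes and 2.22% of the 180. Over all genes tested, 0.891% were called between the reagents. Whether the overlap departs from that share was not tested. Of the 4, 2 were higher and 2 were lower with siAirn-001.2.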

How the data were processed

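The authors deposited 1 table of log2 values with 1 row per gene, and the submitters' processing notes name RMA and limma without versions. RMA equalises array distributions, which hides a change shared by most genes and damps differences of dim probes. The deposited p-values compare all siAirn arrays with siScramble, per the file headers. The series' other table repeats the log2 values with 2 decimals and was not used further.

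The 8 siAirn arrays were fitted with limma 3.58.1 in R 4.3.3 (lmFit, eBayes; reagent plus replicate number as a block; 3 residual and 4.83 prior degrees of freedom). Tests were two-sided with Benjamini-Hochberg adjustment over 20193 genes, a gene is called at an adjusted p under 0.05, and errors are standard errors of that fit. The number of arrays limits the precision. Deviations from the group means correlated at 0.318, 0.534, 0.364 and 0.431 between same-numbered arrays, over the minimum of 0.1 set for pairing, and all 8 arrays correlated best with their own number.

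The comparison, the 54 gene lists and the naming rule were chosen with earlier results of these data known. The rule names Airn, Igf2bp2, Igf2r and its neighbours Slc22a2 and Slc22a3, the 15 largest called differences each way and up to 3 called members of each list each way, and it passes over 14 called symbols of unnamed or small RNA loci. Of the symbols 17433 were current in RefSeq (GRCm38.p6), 2024 older and 736 unmatched, and promoter sequences are RefSeq's. The fit was tested on simulated data. Alternatives changed the block, arrays, scaling, weights, filter, variance prior and replicates. Some called genes counted here are not reported by name.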

Additional observations from a re-analysis of the deposited data

Results flagged for a closer look

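Of 148 groups of 4 arrays examined for the genes named by rule, 2 held an array apart from the other 3 by Dixon's criterion. No chance rate can be set beside this count, since most of these genes were chosen for passing a test over the same arrays. Where arrays 1 and 2 lay apart from 3 and 4, as in Airn, the criterion can hardly set 1 array apart. Cpne5 in siAirn-001.1 was at 7.88 in array 1 and at 8.02, 8.04 and 8.03 in the others. Lgals3bp in siAirn-001.2 was at 8.27 in array 3 and at 8.06, 8.06 and 8.03 in the others. In both genes the arrays of the reagents still did not overlap.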

How the results depend on the processing

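The count of 180 calls (55 higher, 125 lower) depends most on the block and on the number of replicates. No replicate block gave 25 calls (6 higher, 19 lower), with a median SE of 0.101 against 0.0755, and 10 of the 69 called genes named by rule stayed called. The cause of the lost calls beyond the larger SE was not tested. A random-effect block gave 313 calls (98 and 215), 124 of them shared with the 180. Leaving out 1 replicate number gave 1 to 31 calls (0 to 4 higher, 1 to 29 lower). Numbers 3 and 4 alone, added later, gave 2583 (1194 and 1389) and numbers 1 and 2 alone 377 (133 and 244). The other alternatives gave 157 to 238 calls: median centring gave 201, 76.6% of them lower against 69.4%, and array weights 157. Leaving out genes with a mean level under 6.09 gave 238 from 15145 tested, and the all-array fit without block gave 203, 79 of them shared. Every called gene kept its direction wherever it was tested. That was fixed in advance where replicate numbers were left out, since the 4 differences of each called gene had the same sign. Changing the block, filter or variance prior leaves the mean difference itself unchanged. Airn stayed negative and uncalled throughout. Reversed signs were limited to uncalled genes: with 1 number left out, Slc22a3 ran from -0.11 to 0.02 (above 0 without number 2) and Igf2bp2 from -0.1 to 0.01 (above 0 without number 4); Igf2bp2 was 0.04 in numbers 1 and 2 alone, and Igf2r -0.03 in numbers 3 and 4 alone.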

Other observations

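Some of the largest differences did not pass the test. Of 14 genes with a mean difference of at least 2-fold and no call, 10 were lower and 4 higher with siAirn-001.2, and in 11 the differences of numbers 3 and 4 both exceeded those of numbers 1 and 2. Ak4, a mitochondrial adenylate kinase, had differences of -0.63, -0.31, -2.83 and -2.29 (log2) in numbers 1 to 4 (adjusted p = 0.12). Egln3, a prolyl hydroxylase of hypoxia-inducible factor, had -0.77, -0.29, -1.63 and -1.33. Slc38a3, a glutamine transporter, had -0.67, -0.61, -2.34 and -2.26, and Igfbp5, an insulin-like growth factor binding protein, -0.39, -0.32, -2.34 and -2.12. Hcn4, the pacemaker channel of the sinus node, had -0.17, -0.68, -1.51 and -1.76. In the other direction F3, tissue factor, had 0.36, 0.46, 1.85 and 1.62.

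The small nucleolar RNA rows Snord115 and Snord116 showed a different pattern, with -5.22 and -5.35 in number 3 and 0.37 and -0.02 in number 4, so their large means come mainly from 1 pair of arrays. The gene of the let-7i microRNA, Mirlet7i, was called higher with siAirn-001.2 by 0.38 ± 0.06, with differences of 0.31 to 0.45 in the 4 numbers (adjusted p = 0.0475). The gene row Gm10727, passed over by the naming rule, had the largest called difference (-1.37 ± 0.07, adjusted p = 0.00105).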
